A study of Mus musculus with 55 samples.

Results

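Chaperones and heat shock proteins were followed through B cell development in mouse bone marrow. The group was defined by name: every probe set on either array design whose annotated gene symbol begins with Hsp, Dnaj or Pdia, or with Cct and a digit, or is Canx or Calr. That gave 69 probe sets for 49 genes, of 6137 genes with an unambiguous symbol, and each gene was read from its brightest probe set. By the known location of their proteins, 29 are cytosolic or nuclear, 12 belong to the endoplasmic reticulum (ER) and 6 to mitochondria. The other 2, Hspg2 (a basement membrane proteoglycan gene that the name rule takes in) and Dnajb3, were left unsorted. The genes of cytosolic Hsp90 beta (Hsp90ab1), of its ER relative Hsp90b1 and of Hspa1b had no probe set named here.

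Chaperones hold unfinished proteins until they have folded. In the cytosol Hsp70 proteins work in cycles with J domain partners of the Dnaj families, Hsp90 finishes kinases and other signalling proteins, and the ring-shaped chaperonin TRiC, built of Cct subunits, folds actin and tubulin. In the ER, BiP (Hspa5), calnexin, calreticulin and protein disulphide isomerases fold secreted and membrane proteins, among them immunoglobulin chains: BiP was found as the protein that binds free immunoglobulin heavy chain in B cell precursors.

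RNA of 5 populations sorted from mouse bone marrow was hybridised to 2 oligonucleotide array designs, the first set and the b set, which carry different probe sets. Pre-BI cells (B220+ c-kit+) were sorted 6 times (sorts 1, 2, 3, 8, 9 and 10). Large pre-BII cells (sorts 1, 2, 8, 9 and 10) and small pre-BII cells (sorts 1, 3, 8, 9 and 10) were both B220+ CD25+ without surface immunoglobulin and were separated by size. Immature B cells (B220low, surface IgM+; sorts 1, 2, 8, 9 and 11) and mature B cells (B220high, surface IgM+; sorts 1, 3, 8, 9 and 11) completed the 26 preparations. The labels give no strain, age, genotype or treatment. Nothing in them tells whether the sorts used different mice, and p-values therefore describe the spread among these preparations alone, which could be technical.

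Of 55 deposited arrays 54 were used: the first-set array titled as a second array of mature B sort 1 shared every one of its 6584 values with the array of sort 11 and was counted once, as sort 11. Array brightness before scaling spanned 5.60-fold (first set) and 4.22-fold (b set), and levels below are quantile-normalised intensities in arbitrary units. The 18S control before scaling separated the early from the late sorts. On the first set it read 3741 to 14192 in sorts 1 to 3 and −452 to 28 in sorts 8 to 11. On the b set it read 1447 to 13320 and −336 to 194. The populations carried their markers: Igll1, a surrogate light chain gene, averaged 3440 in pre-BI cells, Rag1 5182 in small pre-BII cells, Mki67, a proliferation gene, 12604 in large pre-BII cells, and Cd22 3677 in mature B cells. Il2ra, the gene of CD25, exceeded noise in only 1 of 26 preparations. Values up to 251 (first set) or 319 (b set) lay within the noise, judged from the negative intensities. Levels are compared only within a probe set, because the array designs are separate scales and probes differ in brightness.

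By this noise limit 15 of 29 cytosolic, 3 of 12 ER and 2 of 6 mitochondrial members were above noise in all 26 preparations. A further 10, 6 and 3 were above it in some preparations, and 4, 3 and 1 in none. The stress-inducible Hsp70 gene Hspa1a exceeded the limit in 1 preparation, immature B sort 1 (353), and its population means lay between 20.1 and 78.0. The disulphide isomerase genes Pdia4 and Pdia5 and the BiP partner Dnajb9 did not exceed it in any preparation, and Pdia6 did so once.

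After a filter on dim values 45 members were tested across the 5 populations with limma's moderated F test, and 12 differed at an adjusted p under 0.05. Over all tested probe sets 14.5% did so, and many probe sets are dim. Among genes above noise in all 26 preparations 7 of 20 members were called, 35%, and 35.1% of the 1067 such genes: the share of members was that of the background. Of the 12, 10 were cytosolic (of 27 tested), 1 was an ER gene, Hspa5 (of 11), and 1 mitochondrial, Hspd1 (of 5). Because a member bright in a single population can pass the filter through that population, these counts describe the tested members only. In bulk RNA, fewer cells with a transcript and less of it per cell cannot be told apart.

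**Figure D1:**
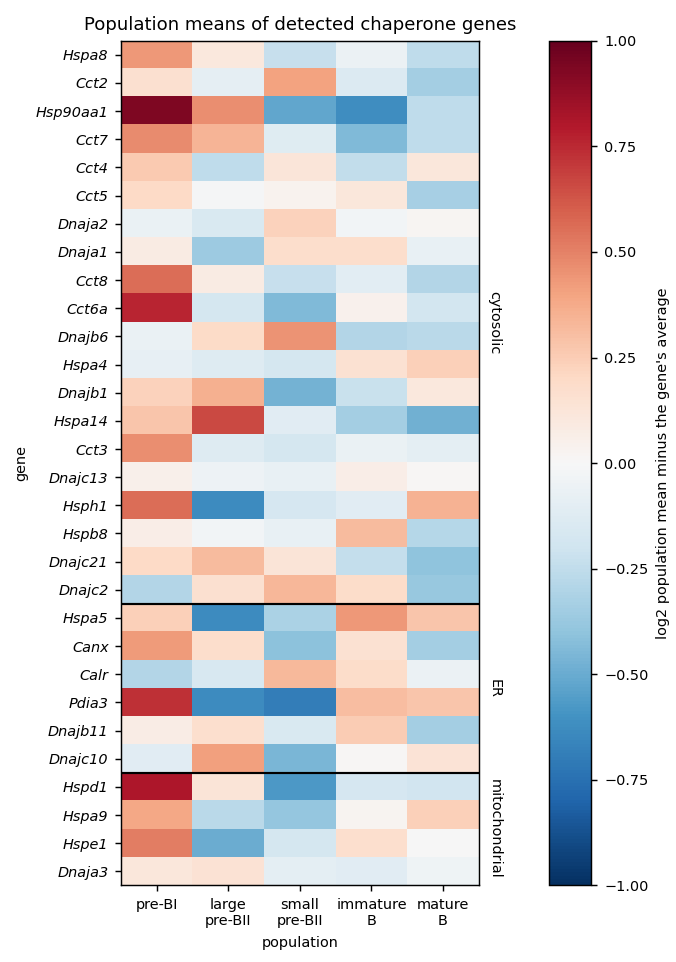
Population means of the 30 members whose mean exceeded the noise limit in every population, as log2 differences from the gene's own average (colour scale from −1 to 1), by compartment and brightness. Hsp90aa1, Cct6a and Hspd1 are reddest in pre-BI cells. Hspa5 and Pdia3 are blue in both pre-BII columns and red in pre-BI, immature and mature B cells, Pdia3 most so in pre-BI cells.

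Among cytosolic members Hsp90aa1, which encodes the inducible Hsp90 alpha, differed most clearly between populations. Its first-set levels in pre-BI cells ran from 5716 through a median of 7393 to 9469. Large pre-BII sorts 1, 2, 8, 9 and 10 read 5201, 4808, 7327, 5017 and 4428, and small pre-BII sorts 1, 3, 8, 9 and 10 read 2060, 2017, 4171, 3083 and 2191. Immature B sorts 1, 2, 8, 9 and 11 read 1648, 2558, 3153, 2883 and 2368, and mature B sorts 1, 3, 8, 9 and 11 read 3070, 2972, 3753, 3753 and 2680. The pre-BI and large pre-BII levels overlapped, and every preparation of both lay above every preparation of the later populations.

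From large to small pre-BII cells Hsp90aa1 fell 2.03-fold (log2 difference −1.02 ± 0.21 SE, n = 5 and 5, limma adjusted p = 0.00145). Mature B cells were 2.28-fold below pre-BI cells (−1.19 ± 0.20, n = 5 and 6, limma adjusted p = 5.44e-05), while pre-BI and large pre-BII cells did not differ at this spread (−0.48 ± 0.20, limma adjusted p = 0.377). A separate probe set on the b set gave population means of 2606, 2068, 733, 892 and 958 in the order of development and fell 3.46-fold between the pre-BII populations (limma adjusted p = 0.000878). The pre-BII step was −1.29 within sorts 1 to 3 and −0.84 within sorts 8 to 11, without passing in these smaller sets (limma adjusted p = 0.0532 and 0.132). The drop of mature below pre-BI cells was called within sorts 1 to 3 (−1.27) and within sorts 8 to 11 (−1.14). On the deposited values without scaling neither call remained (limma adjusted p = 0.726 for the pre-BII step and 0.515 for mature against pre-BI cells).

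Markers of cycling cells moved with Hsp90aa1 at the pre-BII step but not at the first step, where their sum was higher in large pre-BII cells: the summed level of Mki67, Top2a and Prc1 was 9834 to 13460 (pre-BI), 18602 to 21467 (large pre-BII), 1070 to 2544 (small pre-BII), 544 to 807 (immature B) and 389 to 570 (mature B). Mki67, the brightest, weighs most in this sum. At the first step 1 of the 3 was called, as higher, and all 3 fell between the pre-BII populations. Gzma, a T and NK cell gene, fell at that step and also at the first step, and averaged 1333, 353, 147, 137 and 136 in the order of development. Cd3g of the same list of 3 genes did not exceed noise, and Cd3e did in 6 preparations. The summed list was 910 to 2441 in pre-BI cells and 89.6 to 341 in mature B cells. The part of either list in the chaperone differences was not tested.

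Hspa8 encodes the constitutive Hsp70. On the b set it read 8318, 9579 and 12162 (lowest, median, highest) in pre-BI cells, 8045, 5593, 10537, 7170 and 7170 in large pre-BII, 6948, 5771, 4264, 5119 and 8474 in small pre-BII, 6627, 5845, 8573, 5845 and 7592 in immature and 5845, 5400, 6500, 5068 and 7170 in mature B cells. All mature B preparations lay below all pre-BI preparations, and the middle populations overlapped with both. Mature B cells were 1.62-fold lower than pre-BI cells (−0.69 ± 0.17, limma adjusted p = 0.00543). The first-set probe set differed as much (−0.66 ± 0.22) without passing (limma adjusted p = 0.0545), and the b-set call was lost on deposited values and after scaling to a 75th percentile or a trimmed mean. Within sorts 1 to 3 and within sorts 8 to 11 the difference was −0.72 and −0.70 (limma adjusted p = 0.118 and 0.135).

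**Figure D2:**
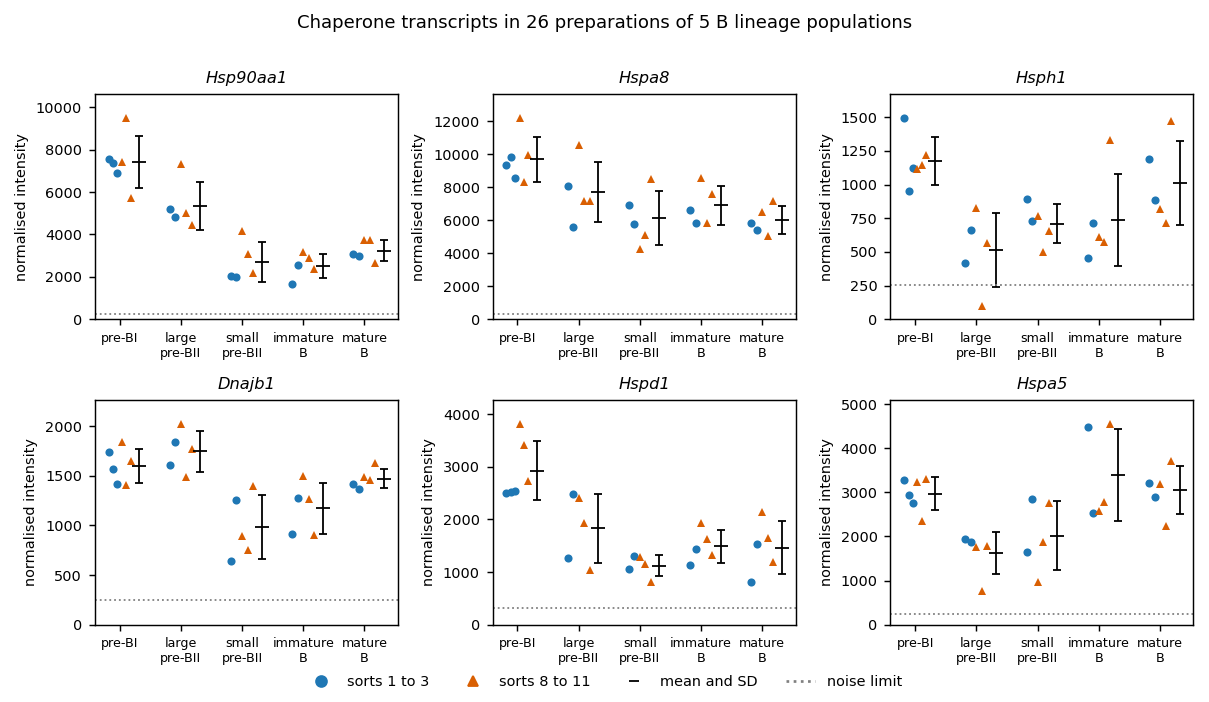
Normalised intensity of 6 chaperone genes in every preparation of the 5 populations, with sorts 1 to 3 as circles, sorts 8 to 11 as triangles, the mean and SD as black bars, and the noise limit dotted. Hsp90aa1 separates pre-BI and large pre-BII cells from the later populations, and Hspa5 is lowest in large pre-BII cells.

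Dnajb1, a J protein that feeds clients to Hsp70, was lowest in small pre-BII cells. It read 1409 to 1838 in pre-BI cells (median 1609), and 1608, 1844, 2027, 1491 and 1770 in large pre-BII cells. In small pre-BII cells it read 641, 1252, 889, 748 and 1396, without overlap with the large cells, and the fall was 1.84-fold (−0.88 ± 0.22, limma adjusted p = 0.0107). Immature B cells read 911, 1279, 1499, 1269 and 902, and mature B cells 1422, 1365, 1488, 1458 and 1633, which overlapped with pre-BI cells (mature against pre-BI −0.12 ± 0.21, limma adjusted p = 0.857). A dimmer probe set of Dnajb1 differed in the same direction between the pre-BII populations (−0.72 ± 0.39) and was not called. Within sorts 1 to 3 and within sorts 8 to 11 the fall of the brighter probe set was −0.93 and −0.84, not called in these smaller sets, nor was it on deposited values.

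Hsph1 encodes Hsp110, which recharges Hsp70 with nucleotide, and differed at the first step instead. Its levels in pre-BI cells were 955 to 1490 (median 1131), and in large pre-BII cells 421, 661, 824, 97 and 563, so that the populations did not overlap. The fall was 2.83-fold (−1.50 ± 0.37, limma adjusted p = 0.0229). Small pre-BII cells read 892, 728, 770, 500 and 654, immature B cells 458, 715, 611, 573 and 1329, and mature B cells 1190, 883, 815, 712 and 1470, which overlapped with pre-BI cells. The call rested on few preparations: it was lost without pre-BI sort 1 or large pre-BII sort 1 or 9, and without sort 9, the only large pre-BII preparation below noise, the difference was −0.98. It was not called within sorts 1 to 3 (−1.20) or within sorts 8 to 11 (−1.70), or on deposited values.

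Hspa14, a ribosome-associated Hsp70, was highest in large pre-BII cells, where all preparations read 1801 to 1970, and lower in small pre-BII cells at 1018, 1389, 1121, 1019 and 957. That step had a log2 difference of −0.78 ± 0.26 with no overlap (limma adjusted p = 0.0858). Pre-BI cells spread from 795 to 2270, and mature B cells, at 592, 1343, 1046, 535 and 758, were 1.71-fold lower with overlap (−0.77 ± 0.25, limma adjusted p = 0.0431). This call was lost when any of 8 preparations was left out, under each other scaling tried, and within either range of sorts. The 8 were pre-BI sorts 2, 3, 9 and 10, large pre-BII sort 1 and mature B sorts 1, 9 and 11. Hspa4, another Hsp110 family gene, read between 796 and 2207 in all preparations with no called difference.

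TRiC contributed 7 well detected subunit genes, Cct2, Cct3, Cct4, Cct5, Cct6a, Cct7 and Cct8, and all 7 had lower log2 means in mature B than in pre-BI cells, from −0.96 to −0.08. The direction held for 7 of 7 after percentile or trimmed-mean scaling and for 6 of 7 on deposited values. Cct7 and Cct8 passed the test, and neither did so after percentile or trimmed-mean scaling. The remaining subunit gene, Tcp1, stood outside the name rule: its means were 3231, 3045, 2023, 1436 and 2150 in the order of development (moderated F, limma adjusted p = 0.0464). Cct6b did not exceed noise in any preparation.

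Cct8 read 1876 to 4082 in pre-BI cells (median 2027) and 1245, 1266, 1526, 1543 and 1290 in mature B cells, with no overlap, and was 1.74-fold lower there (−0.80 ± 0.23, limma adjusted p = 0.0198). Its pre-BI levels were higher in sorts 8 to 11 (mean 3037) than in sorts 1 to 3 (1930), and the call was lost without pre-BI sort 8 or 9. Cct7 read 3717 to 7592 in pre-BI cells (median 5042) and 3063, 3577, 3976, 2472 and 2683 in mature B cells, with overlap and 1.63-fold lower (−0.71 ± 0.22, limma adjusted p = 0.0366). Leaving out 6 of the 26 preparations in turn ended that call: pre-BI sorts 2, 8 and 9 and mature B sorts 1, 9 and 11.

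Cct6a read 1886 to 4199 in pre-BI cells (median 2512), 2087, 1180, 1549, 1285 and 779 in large pre-BII, 2190, 813, 1210, 1216 and 291 in small pre-BII, 1852, 2213, 1217, 1592 and 1160 in immature and 1799, 1181, 1342, 821 and 1707 in mature B cells. Every mature B preparation lay below every pre-BI preparation, and the populations differed in the F test (limma adjusted p = 0.0396), which leaving out 7 of the 26 preparations in turn ended (pre-BI sorts 1, 2, 3 and 8, large pre-BII sort 9, small pre-BII sort 3 and mature B sort 3), while no pairwise comparison passed without a block. Mature B against pre-BI cells (−0.96 ± 0.35, limma adjusted p = 0.0831) passed on deposited values (−1.28, 0.0165) and after percentile scaling (−1.20, 0.0464). Cct2 had its highest mean in small pre-BII cells, 7594 ± 1536 (SD, n = 5), against 5409 ± 1082 in large pre-BII cells, without passing (limma adjusted p = 0.224). With the sort number as a replicate block, which did not pair these populations, Cct2 was called higher in the small cells (0.48, limma adjusted p = 0.0138). Cct3, Cct4 and Cct5 had no called difference in the main tests. Cct5 was called lower in mature B than in pre-BI cells within sorts 8 to 11 (−0.87, limma adjusted p = 0.0140). It was also called without pre-BI sort 2 (−0.63, limma adjusted p = 0.0243).

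**Figure D3:**
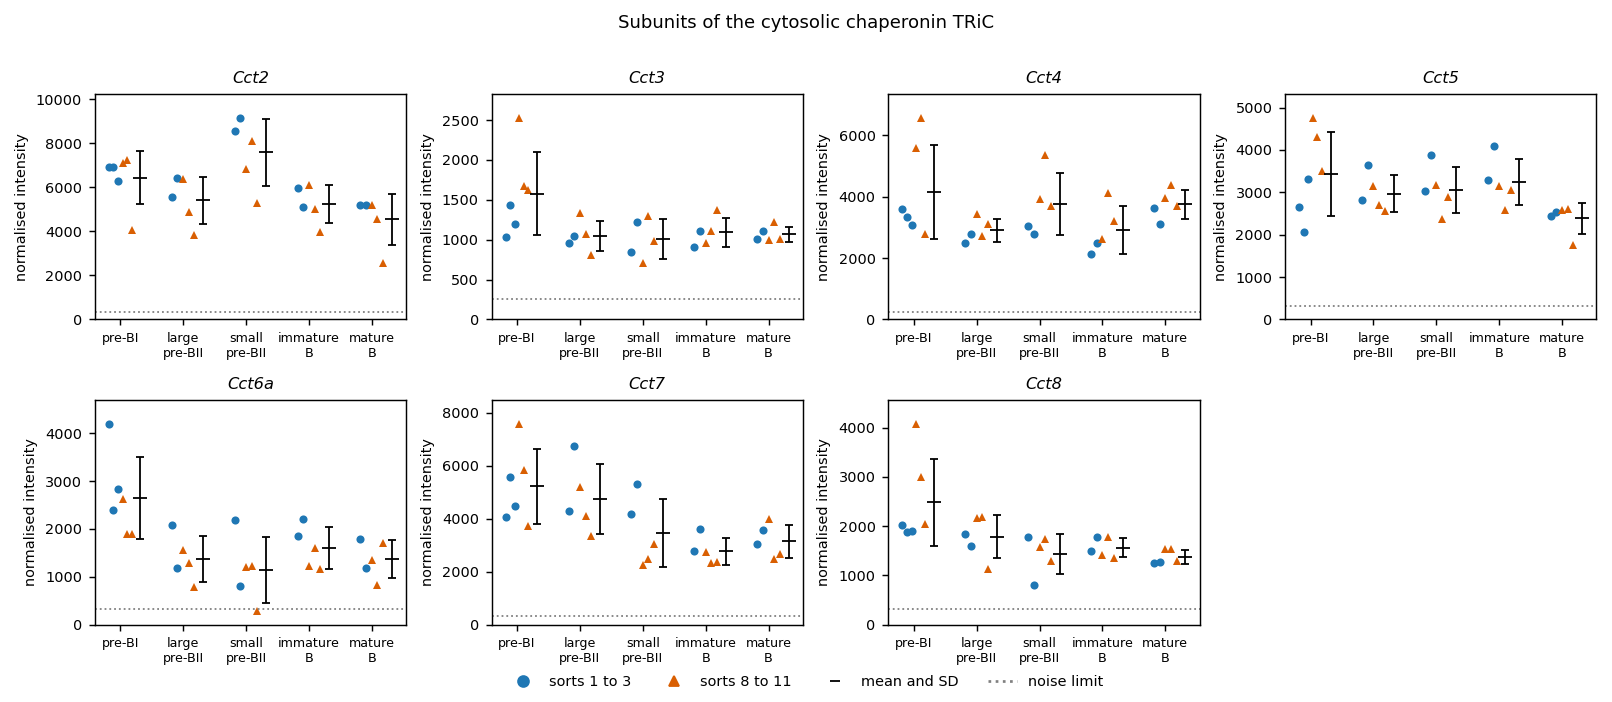
Normalised intensity of the 7 detected TRiC subunit genes in every preparation, drawn as in the plot of 6 chaperone genes. Pre-BI means are the highest for every subunit except Cct2, and the triangles of sorts 8 and 9 lie highest among pre-BI preparations for every subunit except Cct6a.

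The other cytosolic members, among them the Hsp70 partners Dnaja1 (means 1369 to 1989) and Dnaja2 (1939 to 2531), showed no called difference in the main tests. With the sort number as a replicate block Dnaja1 was called higher in small than in large pre-BII cells (0.74, limma adjusted p = 0.0436). Equal sort numbers did not pair these populations. Hspa2, Hspa4l and Hspbp1 were called by the F test with every population mean below the noise limit, so no fold is given for them.

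In the ER, Hspa5 was the only member called by the F test. It read 2342 to 3297 in pre-BI cells (median 3081), 1937, 1865, 1770, 768 and 1773 in large pre-BII, 1649, 2843, 971, 1863 and 2754 in small pre-BII, 4485, 2541, 2582, 2774 and 4557 in immature and 3215, 2898, 3188, 2228 and 3712 in mature B cells. Every large pre-BII preparation lay below every pre-BI, immature and mature preparation, and small pre-BII cells overlapped with all of them. The F test gave a limma adjusted p of 0.00658, and it stayed under 0.05 when any single preparation was left out, the lowest, large pre-BII sort 9, included. On deposited values and within either range of sorts it did not pass.

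Mature B and pre-BI cells were level in Hspa5 (0.03 ± 0.26, limma adjusted p = 0.980). The 1.92-fold lower level in large pre-BII cells missed the threshold in the unblocked test (−0.94 ± 0.26, limma adjusted p = 0.0519). A b-set probe set of Hspa5 had means of 2448, 1594, 2048, 3206 and 2666 in the order of development and was also called by the F test (limma adjusted p = 0.0144). Both probe sets are of the manufacturer's class that may share sequence with related genes, so related transcripts may contribute. So are those of Hspa8, Cct3, Cct4, Hspe1, Pdia6 and Hspg2 and the b-set probe set of Hsp90aa1. Whether probe sets of other classes share sequence with related genes was not checked.

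Pdia3, a disulphide isomerase that works with calnexin and calreticulin, was also lower in both pre-BII populations than in the others, with means of 986 ± 512, 384 ± 255, 367 ± 181, 735 ± 335 and 720 ± 280 (SD, n = 6 and then 5 each), F test limma adjusted p = 0.0666. It was highest in pre-BI and lowest in small pre-BII cells, and its difference between large pre-BII and pre-BI cells (−1.39 ± 0.46, limma adjusted p = 0.149) passed with the sort number as a replicate block (−1.47, limma adjusted p = 0.00919). In each population its mean was higher in sorts 8 to 11 than in sorts 1 to 3, for example 1361 against 610 in pre-BI cells. Canx, calnexin, went from 2681 ± 612 in pre-BI to 1578 ± 849 in mature B cells (−0.94 ± 0.37, limma adjusted p = 0.113). It was lower in sorts 1 to 3 than in sorts 8 to 11 in every population (2184 against 3178 in pre-BI and 698 against 2164 in mature B cells), and with the range of sorts as a block the difference passed (−1.04, limma adjusted p = 0.00550). Within sorts 1 to 3 it was −1.64 and within sorts 8 to 11 −0.56, not called in either (limma adjusted p = 0.0742 and 0.338). Calr, calreticulin, was highest in small pre-BII cells at 1256 ± 246 and lowest in pre-BI cells at 818 ± 341, without a call. In each population its mean was higher in sorts 1 to 3 than in sorts 8 to 11, for example 1047 against 589 in pre-BI cells. Dnajc3, an inhibitor of the stress kinase PERK, differed by sort number more than by population: its means in sorts 1 to 3 were 477 to 670 and in sorts 8 to 11 were 166 to 260. Dnajb11 and Dnajc10, J protein partners of BiP, were near noise with no called difference.

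The ER stress element, the boxes CCAAT and CCACG separated by 9 bases, is known as a binding site in the unfolded protein response and was searched on both strands of RefSeq promoter windows, 250 bases before to 50 after each start (GRCm38.p6), which were at hand for 42 of the 49 members. It was in the windows of 5 of 12 ER members, 41.7%, of no cytosolic or mitochondrial member, and of 37 of 27025 genes in all, 0.137%. The 5 stretches are shown because they set the ER members apart from the cytosolic ones in sequence; capitals mark the boxes, which in Calr lie on the opposite strand.
Hspa5 (chr2:34772005-34772063, plus strand): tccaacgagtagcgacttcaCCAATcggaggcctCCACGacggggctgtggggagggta
Calr (chr8:84847055-84847113, minus strand): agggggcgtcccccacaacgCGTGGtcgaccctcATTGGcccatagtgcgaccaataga
Canx (chr11:50325780-50325838, minus strand): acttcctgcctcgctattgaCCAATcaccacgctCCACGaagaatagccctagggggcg
Dnajc3 (chr14:118937807-118937865, plus strand): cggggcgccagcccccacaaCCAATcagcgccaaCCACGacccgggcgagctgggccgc
Pdia6 (chr12:17266471-17266529, plus strand): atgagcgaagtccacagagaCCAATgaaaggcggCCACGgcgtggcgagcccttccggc
Their levels over the 5 populations were unlike one another. Hspa5 was lowest in large pre-BII cells, and Calr had its highest mean in small pre-BII cells. Canx was lowest in small pre-BII cells on its brightest probe set and on a b-set one above noise in 4 preparations. A dimmer first-set probe set of Canx, above noise in 24 preparations, had its highest mean in those cells instead (634), without a call. Dnajc3 split by sort number on its b-set probe set, and Pdia6 was at noise. A match is a description of the letters and says nothing of binding in these cells.

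Mitochondrial members were led by Hspd1 (Hsp60), which folds imported proteins inside a closed chamber capped by Hspe1 (Hsp10). Hspd1 read 2503 to 3820 in pre-BI cells (median 2635), 1275, 2488, 2402, 1936 and 1038 in large pre-BII, 1048, 1305, 1283, 1147 and 817 in small pre-BII, 1125, 1433, 1936, 1622 and 1317 in immature and 803, 1532, 2147, 1637 and 1196 in mature B cells. All pre-BI preparations were above all preparations of the other populations. Mature B cells were 2.07-fold lower (−1.05 ± 0.25, limma adjusted p = 0.00339), a call kept in all 26 single omissions and under each scaling tried, deposited values included. Within sorts 1 to 3 and within sorts 8 to 11 the differences were as large, −1.19 and −1.03, without passing in these smaller sets (limma adjusted p = 0.143 and 0.0565).

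Hspe1 averaged 718 ± 265 in pre-BI cells against 358 ± 203 among large pre-BII cells with overlap (−1.18 ± 0.43, limma adjusted p = 0.232), and Hspa9, the mitochondrial Hsp70, 846 ± 329 and 537 ± 140 (limma adjusted p = 0.449). Hspd1 and Hspe1 lie head to head, and the stretch between their starts is printed from each side because both genes are members. Capitals mark 4 heat shock element units, GAA and TTC in turn with 2 bases between; such runs are known to bind heat shock factor.
Hspd1 (chr1:55088039-55088096, minus strand): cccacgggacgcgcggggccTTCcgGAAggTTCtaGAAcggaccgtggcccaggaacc
Hspe1 (chr1:55088039-55088096, plus strand): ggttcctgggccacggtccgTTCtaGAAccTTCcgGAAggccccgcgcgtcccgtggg
A run of 3 such units was in the windows of 4 members (Hspd1, Hspe1, Dnajb6 and Hsph1) of 42, 9.52%, and of 179 of 27025 genes, 0.662%.

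The shorter heat shock element GAANNTTC, which reads the same on both strands and is part of those runs, was in a window of 9 of 42 member genes, 21.4%, against 9.04% of all genes: 7 of 24 cytosolic, 2 of 4 mitochondrial and 0 of 12 ER members. It is shown, units in capitals, for 4 cytosolic genes that ranged from above noise throughout to noise.
Cct2 (chr10:117063390-117063437, minus strand): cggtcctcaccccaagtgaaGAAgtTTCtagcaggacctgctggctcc
Dnaja1 (chr4:40722324-40722371, plus strand): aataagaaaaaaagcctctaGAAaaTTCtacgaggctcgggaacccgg
Hspa1a (chr17:34972233-34972280, minus strand): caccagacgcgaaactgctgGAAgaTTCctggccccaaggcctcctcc
Hspb1 (chr5:135887782-135887849, plus strand): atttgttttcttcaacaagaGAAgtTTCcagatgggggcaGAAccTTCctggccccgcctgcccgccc
Cct2 and Dnaja1 were well above noise in all 26 preparations, Hspa1a in 1 and Hspb1, a small heat shock protein gene, in 12. The windows of Hspa8, Hsp90aa1, Cct4, Dnajc2, Hspb2, Hspa9 and Dnajc11 were not analysed here.

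Large pre-BII against pre-BI cells gave 1 called member, Hsph1, of 45 tested, where 1.87% of all probe sets were called, 0.874% as higher and 1.00% as lower. Read by brightest probe set, as members were, 142 of 5041 tested genes were called. Preparations of equal sort number deviated together here, and with the sort number as a replicate block 6 members were called, all lower in large pre-BII cells, and 3.17% of probe sets. They were Hsph1, Hspa5 (−0.91, limma adjusted p = 0.0188), Pdia3 (−1.47, 0.00919), Hspd1 (−0.73, 0.0234), Cct6a (−0.97, 0.0312) and Hspe1 (−1.23, 0.0370). With the range of sorts as a block instead, 3 members and 2.12% of probe sets were called. The cytosolic median log2 difference was −0.14, the ER median 0.10 and the mitochondrial median −0.66, beside 0.00 over all genes tested. The ER median turned to −0.33 and −0.11 with floors at the 60th percentile and the noise limit, and was −0.33 over the 3 ER genes above noise in all 26 preparations. The cytosolic median was 0.01 on deposited values. Without pre-BI sort 1 or large pre-BII sort 1 no member was called, and without pre-BI sort 2 or 8, or small pre-BII sort 3, 8 or 10, 2 were.

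Small against large pre-BII cells gave 3 called members in the main test, all lower and all cytosolic: Hsp90aa1, Dnajb1 and Hspa4l, the last below noise. Of all probe sets 5.34% were called, 2.03% as higher and 3.31% as lower. With the sort number as a replicate block, which did not pair these populations, 6 members and 7.13% of probe sets were called. Hsp90aa1, Dnajb1, Hspa14 (−0.90, limma adjusted p = 0.00765) and the mitochondrial Hspd1 (−0.64, 0.0437) were lower. Cct2 (0.48, 0.0138) and Dnaja1 (0.74, 0.0436) were higher, and Hspa4l was not called. Immature B against small pre-BII cells gave 0 called members by limma (2.13% of probe sets called, 1.26% as higher and 0.864% as lower), with 4 at an unadjusted p under 0.05. With the sort number as a replicate block, since equal numbers deviated together here too, Cct2 was called lower in immature B cells (−0.50, limma adjusted p = 0.0292). Mature against immature B cells gave 0 by limma (1.32% of probe sets, 0.602% higher and 0.718% lower), with 3 at an unadjusted p under 0.05, and 0 with the block. Read by brightest probe set, as members were, 346, 145 and 88 of 5041 tested genes were called in these comparisons, in the order given.

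Mature B against pre-BI cells, the ends of the series, gave 7 called members, all lower: Hsp90aa1, Hspa8, Cct7, Cct8, Hspa14, Hspbp1 (below noise) and Hspd1. In that comparison 10.7% of probe sets were called, 4.69% as higher and 6.03% as lower. Read by brightest probe set, as members were, 708 of 5041 tested genes were called (296 higher, 412 lower), beside 7 of 45 members. Among genes above noise in all 26 preparations, 6 of 20 members were called, all lower, and of 1067 such genes 151 were called lower and 119 higher. The median log2 difference was −0.25 over 27 cytosolic, −0.09 over 11 ER and −0.47 over 5 mitochondrial members tested, beside 0.04 over all genes, and the ER median was 0.03 with a floor at the 25th percentile. Of the 15 cytosolic genes above noise everywhere, 13 were lower in mature B cells, and of all 1067 such genes 47.9%. That was 13 of 15 after percentile or trimmed-mean scaling and 9 of 15 on deposited values. The count of called members was 4 on deposited values or after percentile scaling, 2 after trimmed-mean scaling and 4 without pre-BI sort 9.

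**Figure D4:**
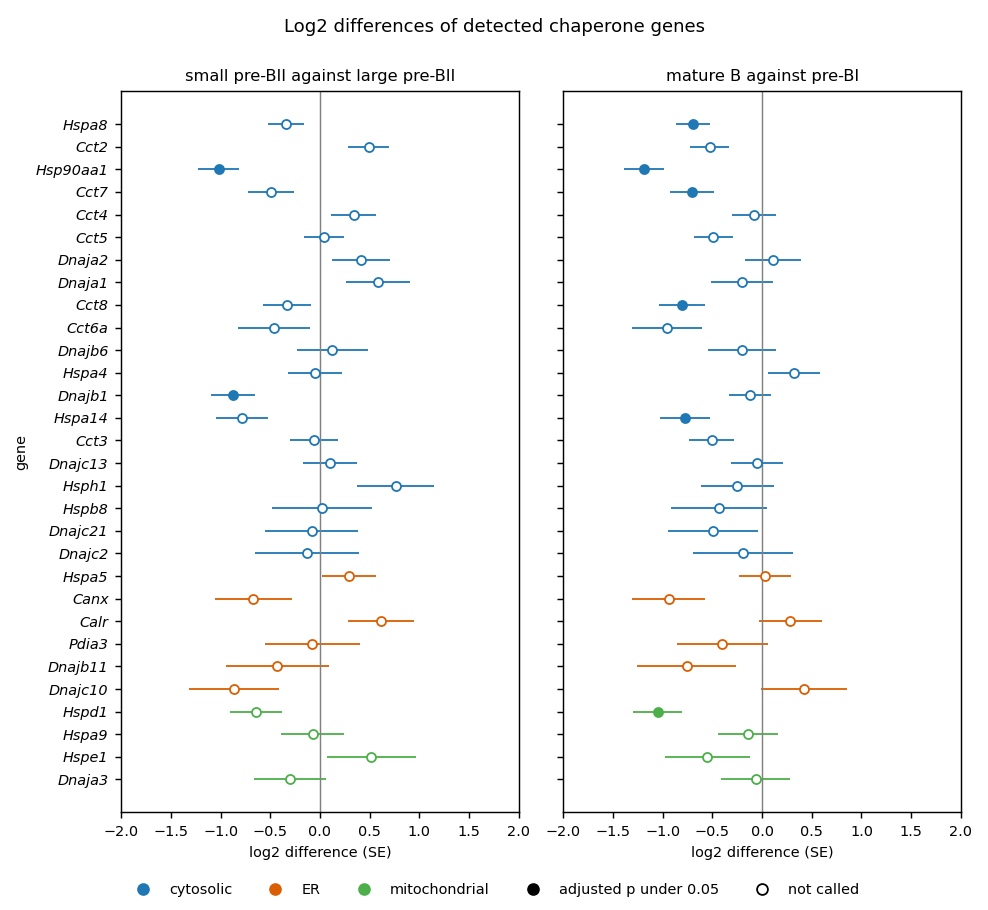
Log2 differences with SE of the 30 members whose means exceeded noise in every population, for small against large pre-BII cells and mature B against pre-BI cells, coloured by compartment and filled where the limma adjusted p was under 0.05. All filled points lie left of 0, and in the right panel they are cytosolic genes and the mitochondrial Hspd1, with no ER gene among them.

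Cochaperones and regulators outside the name rule were followed as a list of 29 genes, of which 15 were on the arrays and 13 tested. Fkbp4, an Hsp90-bound immunophilin, had means of 6942, 4632, 3326, 3132 and 3047 in the order of development and was 2.25-fold lower in mature B than in pre-BI cells (−1.17 ± 0.22, limma adjusted p = 0.000185). Bag1, an Hsp70 release factor, also fell in that comparison (607 to 325, limma adjusted p = 0.0431). Stip1, which bridges Hsp70 and Hsp90, fell from large to small pre-BII cells (520 to 105, limma adjusted p = 0.0488), to below noise. The list's other comparisons held no call, and its median between mature and pre-BI cells was −0.33.

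Of 30 other genes of ER folding and stress, 20 were on the arrays and 19 tested, and they went different ways. Ero1b, which recharges disulphide isomerases, had means of 855, 1293, 3262, 4952 and 4339. It rose 2.45-fold from large to small pre-BII cells (1.29 ± 0.31, limma adjusted p = 0.00619) and was 5.33-fold higher in mature B than in pre-BI cells (2.41 ± 0.29, limma adjusted p = 1.62e-07). Herpud1, of ER-associated degradation, rose 1.86-fold from pre-BI to large pre-BII cells (limma adjusted p = 0.0107), opposite in direction to Hspa5, and fell 1.98-fold from small pre-BII to immature B cells (limma adjusted p = 0.00495). Sec61a1, the translocation channel, fell 2.06-fold into small pre-BII cells (limma adjusted p = 0.0106) and rose 2.25-fold into immature B cells (limma adjusted p = 0.00759). Creld2, an ER protein gene, was lower in mature B than pre-BI cells (351 to 136, limma adjusted p = 0.0387), to below noise. Xbp1, Atf4 and Atf6, transcription factors of the unfolded protein response, had no called difference, and Ddit3 was at noise.

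Transcripts of other cell types moved with some of these results. The granulocyte list, 8 genes of which 6 exceeded noise in some preparation and Ltf and Mpo in none, summed to 2174 to 11629 (pre-BI), 2267 to 5457 (large pre-BII), 2156 to 3764 (small pre-BII), 2940 to 4901 (immature B) and 3507 to 6807 (mature B). Its Ngp, the monocyte gene Lyz2 and the T and NK cell gene Gzma fell from pre-BI to large pre-BII cells, as Hsph1 did. The 3 erythroid genes summed to between 4274 and 15991 over all preparations, with Car2 alone called by the F test. The plasma cell list summed to 212 to 957, with Sdc1 below noise throughout. Beside it, the Hspa5 mean was higher in immature B than in small pre-BII cells (3388 against 2016), with overlap and without a call. Immediate-early genes, which answer to handling as well as to signals, went different ways: of 8 on the arrays 7 were tested, 5 were called by the F test, and 3 did not exceed noise in any preparation. Their sums were 2268 to 4045 (pre-BI), 3012 to 4542 (large pre-BII), 7194 to 9629 (small pre-BII), 5352 to 8165 (immature B) and 4463 to 6571 (mature B). Btg2, the brightest, weighs most in these sums. Between the pre-BII populations Btg2 rose (2354 to 6612) and Dusp1 fell (294 to 72.1, below noise). Ier2 fell from pre-BI (410) to large pre-BII cells (136) and rose from small pre-BII (118) to immature B cells (523), and Egr1 rose there too (503 to 1454), while the list median at that step was −0.72. The 5′ to 3′ signal ratio of the Gapdh control, a measure of RNA integrity, had medians of 0.265, 0.214, 0.178, 0.182 and 0.350 in the order of development. The part of these in the chaperone differences was not tested.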

How the data were processed

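RNA of 26 sorted preparations was measured on 2 oligonucleotide array designs. The deposited values are probe set intensities on a linear scale, negative ones included. The authors' extraction and scaling are not given in the sources used here, and no read depth applies: the number of arrays limits the precision. After 110 control probe sets were removed, arrays were quantile-normalised within each design, repeat arrays of a sort averaged, and values floored at the 40th percentile (87.6 for the first set and 6.89 for the b set) before log2. Probe sets above the floor in at least 5 preparations were tested, 10300 in all, with limma 3.58.1 in R 4.3.3 (all populations in a single fit with a mean-variance trend, Benjamini-Hochberg adjustment within each comparison, calls at 0.05), checked on simulated data. The noise limit is 2 SD estimated from negative values. Symbols come from the platform annotation: 7542 probe sets had 1 symbol, 224 several and 5303 none, and 1 member probe set with several symbols was left out.

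Members and lists were chosen with earlier results of these data known. Named genes were 29 listed by name, every member called, up to 4 called genes per pathway list and comparison, and other probe sets of a named gene that differed in call or direction. Pairing by sort number was checked from deviations around population means: correlations were 0.11 to 0.30 for large pre-BII with pre-BI, 0.14 to 0.25 for immature with small pre-BII and 0.12 to 0.21 for mature with immature B, over 0.1 in every pair. The main tests, with their SE and counts, used no block in any comparison. For the comparisons with every pair over 0.1, counts with the sort number as a replicate block are given beside them. Those of small with large pre-BII cells are given too. Unequal sort numbers were not examined, so the check cannot tell the sort number from the range of sorts. Alternatives were the deposited values, other scalings, floors and filters, no trend, the sort number or range of sorts as a block, each range alone, first arrays only, any probe set of a gene, only the populations compared, and leaving out each preparation. Promoter windows are from RefSeq (GRCm38.p6).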

Additional observations from a re-analysis of the deposited data

Results flagged for a closer look

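Among the 30 named members, 110 population groups were examined for a preparation far from the others, and 7 had one, where chance gives about 1 in 20 groups. Cct2 stood apart in pre-BI sort 10, at 4059 against 6280 to 7257 in the other sorts, and in mature B sort 11, at 2558 against 4585 to 5207. Without pre-BI sort 10, Cct2 was called lower in mature B than in pre-BI cells (−0.65, limma adjusted p = 0.0255). Cct5 was also low in mature B sort 11, at 1747 against 2446 to 2606, and Hspa4 was low in pre-BI sort 10, at 796 against 1382 to 1605. Hspa5 read 768 in large pre-BII sort 9 and 1770 to 1937 in the other sorts of that population. In immature B sort 1, Hspa9 read 1079 against 489 to 609, while Hspe1 read 237 against 579 to 741.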

How the results depend on the processing

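No called gene changed direction. Members called over all populations and in the comparisons of large pre-BII with pre-BI, small with large pre-BII, immature B with small pre-BII, mature with immature B, and mature B with pre-BI cells numbered 12, 1, 3, 0, 0 and 7. Leaving out single preparations gave 9 to 14, 0 to 2, 2 to 3, 0, 0 and 4 to 8. On deposited values the counts were 4, 0, 0, 0, 0 and 4, within sorts 1 to 3 they were 1, 0, 0, 0, 0 and 1, and within sorts 8 to 11 they were 5, 0, 0, 0, 0 and 3, the last 2 settings with fewer samples. With the sort number as a replicate block they were 16, 6, 6, 1, 0 and 10. Equal sort numbers did not pair small with large pre-BII (correlations over 0.1 in 1 of 4 pairs) or mature B with pre-BI cells (3 of 4). The count between large pre-BII and pre-BI cells was 2 after 75th percentile scaling, with floors at the 25th or 60th percentile or the noise limit, with no filter and with first arrays only, 3 with the range of sorts as a block and 0 with only the populations compared. Immature B against small pre-BII cells gave 1 with the 60th percentile floor. Mature B against pre-BI cells gave 4 after 75th percentile scaling or with no trend and 2 after trimmed-mean scaling. The cause of these changes in count was not tested. Of 5305 alternatives of 134 uncalled gene comparisons, 41 were called. Signals near noise bound no fold.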
